A study of Mus musculus with 8 samples.

Results

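The periportal and urea cycle genes described here are Cps1, Otc, Ass1, Asl, Arg1, Gls2, Hal, Sds, Cyp2f2 and Cdh1. They were taken as the rows of the deposited table whose Ensembl identifier maps to one of these symbols, and all 10 were present among 14317 mouse genes. The livers came from female mice fed a western diet (WD) for 8.5 weeks, each mouse giving 1 library. The 4 Con-Veh mice carried an empty silastic pellet (vehicle, Veh) and the 4 Con-DHT mice a 10 mm pellet of dihydrotestosterone (DHT), an androgen that is not converted to estrogen, both implanted at 7 weeks of age. The labels call all 8 mice WT. The methods describe collection after an overnight fast without naming the cohorts it covers, and the strain is not given in the sources used here. RNA was taken from liver tissue as a whole, so that fewer periportal hepatocytes and less RNA per hepatocyte cannot be told apart.

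The liver lobule is graded from the portal vessels, where blood enters, to the central vein, where it leaves. Hepatocytes near the portal vessels break down amino acids and pass the ammonia into the urea cycle, and the few cell layers around the central vein take up what escapes as glutamine. In the urea cycle, Cps1 makes carbamoyl phosphate from ammonia in the mitochondrion and Otc joins it to ornithine to give citrulline. In the cytosol, Ass1 joins citrulline to aspartate, Asl splits the product into arginine and fumarate, and Arg1 releases urea and returns ornithine. Gls2 (liver-type glutaminase), Hal (histidine ammonia-lyase) and Sds (serine dehydratase) free ammonia from glutamine, histidine and serine. Cyp2f2, a cytochrome P450, and Cdh1, which encodes the junction protein E-cadherin, are commonly used to mark periportal hepatocytes, and Cdh1 is also made by bile duct cells.

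The table of RefSeq promoter windows (GRCm38.p6) held 4 of the 10 genes, Otc, Ass1, Hal and Cyp2f2. Of these, Cyp2f2 had the widest difference towards higher values in Con-DHT and Hal the widest towards lower values, and the 250 bases upstream of their starts are printed for that reason. Capitals mark a match to TATAAA or to CCAAT on either strand. The window of Hal lies on the plus strand of chr10:93488518-93488767 and that of Cyp2f2 on the plus strand of chr7:27119705-27119954, while the reads were aligned on GRCm39 according to the submitters' notes.
Hal: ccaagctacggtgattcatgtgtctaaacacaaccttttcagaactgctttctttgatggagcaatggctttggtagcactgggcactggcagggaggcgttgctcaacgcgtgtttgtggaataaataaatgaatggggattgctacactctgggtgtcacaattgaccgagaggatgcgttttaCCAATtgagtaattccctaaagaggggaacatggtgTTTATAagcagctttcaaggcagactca
Cyp2f2: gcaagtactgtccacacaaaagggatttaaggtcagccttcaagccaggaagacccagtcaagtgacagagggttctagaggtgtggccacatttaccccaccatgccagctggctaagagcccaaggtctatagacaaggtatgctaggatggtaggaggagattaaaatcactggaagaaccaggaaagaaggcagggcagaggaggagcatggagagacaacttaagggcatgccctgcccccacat
The Hal window held TATAAA, read on the minus strand and printed as TTTATA, 28 bases upstream of the start and CCAAT 64 bases upstream, and the Cyp2f2 window held neither. Of 32851 RefSeq windows of the same length, 12.4% held TATAAA and 33.8% held CCAAT. TTCNNNGAA, the letters bound by STAT factors, was in 7.02% of all windows and in 0 of the 4 windows of these genes. These matches describe letters, and nothing about binding was measured.

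Levels are given as the deposited normalized read count, which is the reads counted on a gene divided by a size factor of the library. The libraries held between 13123962 and 17815944 reads on mouse genes, of which the hepatocyte transcript Alb took 3.53% to 8.22%. Differences are log2 fold changes of Con-DHT over Con-Veh on the log2(value + 1) scale, fitted with limma over 14312 mouse genes that averaged 10 or more, and a gene is called at an adjusted p of at most 0.05 (Benjamini-Hochberg over all tested genes). Mup20, a male-biased major urinary protein gene, had a log2 fold change of 5.25 and the female-biased Cyp2b13 of -7.07, and the groups did not overlap for either gene. The study lists both among the largest differences between these same groups, so their values are no independent check of the treatment labels.

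Between the groups, the fitted ratio of Con-DHT to Con-Veh, taken on the log2 scale, was 1.82 for Cyp2f2, the urea cycle enzymes had log2 fold changes between -0.39 (Asl) and -0.03 (Otc), and Hal and Sds were at -0.41 and -0.27. None of these differences passed limma's test after adjustment over all genes. Limma called 0 of 10 and edgeR 0 of 10, against 7.21% and 7.15% of all tested genes (4.6% higher and 2.61% lower in Con-DHT by limma), and DESeq2 called 1, Cyp2f2, against 11.0%. An unadjusted p under 0.05 by limma was found for 3 of the 10, Hal, Sds and Cyp2f2, against 23.2% of all tested genes. The log2 fold change was negative for 8 genes and positive for Cyp2f2 and Cdh1, with a median of -0.15 beside -0.0081 for all tested genes. Of the negative values, those of Otc, Ass1 and Gls2 turned positive with quantile normalization, those of Otc and Gls2 with an equal total without the Mup genes, those of Cps1, Otc, Ass1 and Gls2 with scaling by the spike-ins, and that of Gls2 with edgeR, all without a call. Scaling by the spike-ins raised the median of all genes to 0.19. Relative to that median, Cps1 stood at -0.16, Ass1 at -0.11, Otc at -0.02 and Gls2 at -0.02. This scaling moves all genes of a library alike, so values relative to the median nearly repeat the fit as reported by construction. The spike-ins took 1.68% to 3.61% of the reads in Con-Veh and 2.22% to 2.75% in Con-DHT. That spread enters every gene with this scaling, so its p-values are not comparable with the others.

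**Figure D1:**
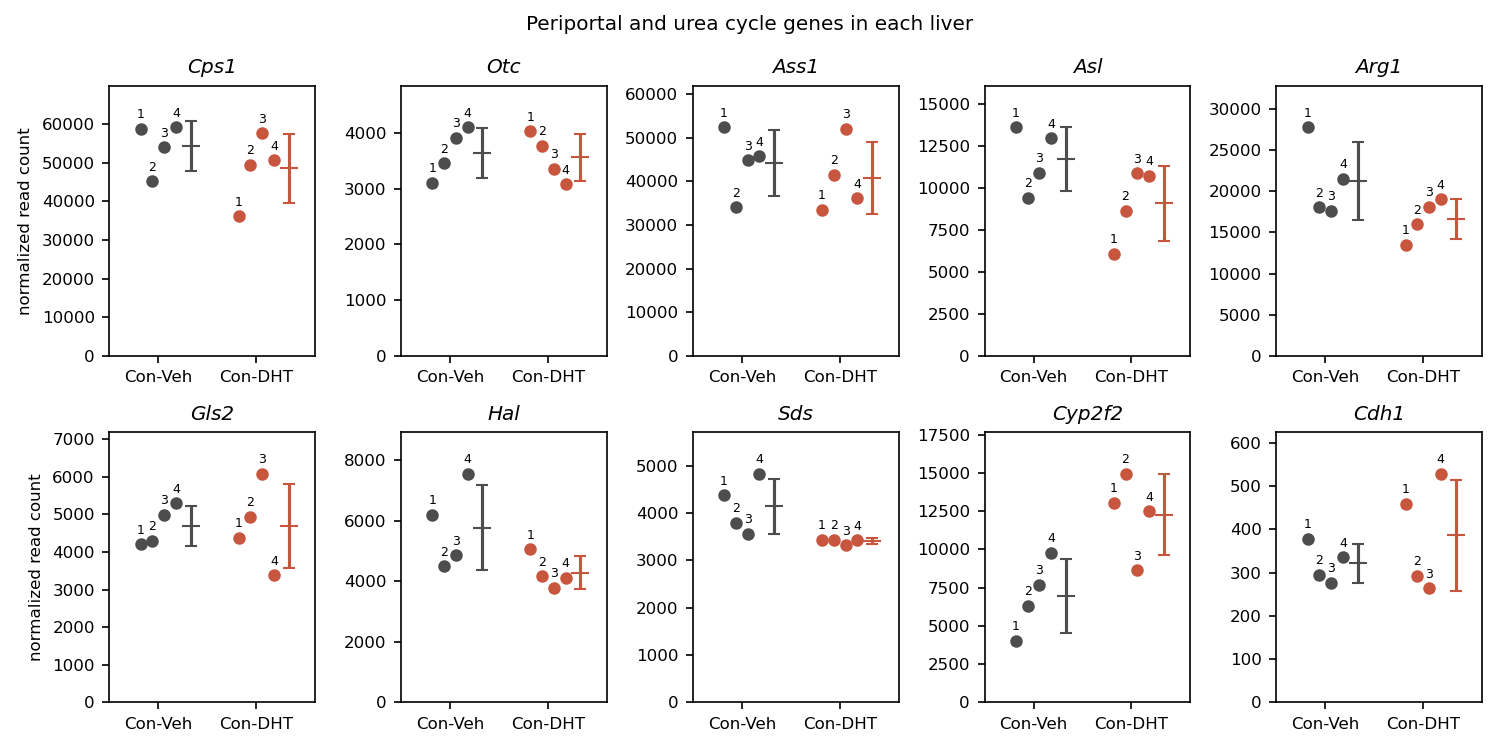
Normalized read count (vertical axes, from 0, a scale for each gene) of the 10 periportal and urea cycle genes in each liver, with the library number above each point and the mean ± SD of the 4 livers of a group beside the points. Sds is the gene whose groups do not overlap, with Con-DHT between 3315 and 3439.7 and Con-Veh between 3561 and 4831, and Cyp2f2 reaches 14956 in Con-DHT against 9784 in Con-Veh.

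The urea cycle enzymes did not pass the test, and their groups overlapped for each of the 5. Cps1, on chromosome 1, had normalized read counts of 58784, 45171, 53943 and 59147 in Con-Veh libraries 1 to 4 and of 36193, 49448, 57620.2 and 50625 in Con-DHT. The lowest value belonged to Con-DHT 1 and the highest to Con-Veh 4, and the other 3 Con-DHT libraries lay within the range of Con-Veh. The means were 54261 ± 6508 and 48471 ± 8945 (SD, n = 4), and the log2 fold change was -0.17 (SE 0.17, 95% interval -0.55 to 0.20, adjusted p = 0.59 by limma). As a ratio of Con-DHT to Con-Veh the interval runs from 0.682 to 1.15.

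Otc, on chromosome X, is the other mitochondrial step of the cycle. Its values were 3105.5, 3452, 3911 and 4100.1 in Con-Veh and 4025, 3770.3, 3358 and 3077 in Con-DHT, so that both groups covered nearly the same range. The means were 3642 ± 449.5 and 3558 ± 422 (SD, n = 4), with a log2 fold change of -0.03 (SE 0.11, 95% interval -0.28 to 0.22, adjusted p = 0.89 by limma).

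Of the cytosolic enzymes, Ass1 on chromosome 2 had 52453, 34079, 44853 and 45847 in Con-Veh and 33532, 41589, 52117 and 36192 in Con-DHT. The highest values of the groups (Con-Veh 1 and Con-DHT 3) and the lowest (Con-Veh 2 and Con-DHT 1) were nearly equal, and the log2 fold change was -0.12 (SE 0.18, 95% interval -0.52 to 0.28, adjusted p = 0.74 by limma). Ass1 shares sequence with the processed pseudogene Gm5424 (99.5% identity over 1240 aligned bases), which had 404 ± 94.5 and 377.5 ± 89.6 (SD, n = 4). Only uniquely mapped reads were counted, so reads that fitted both genes equally well were left out, and their number is not known here.

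Asl, on chromosome 5, had 13626, 9422, 10912 and 12975 in Con-Veh and 6089, 8641, 10885 and 10726 in Con-DHT. Its lowest values were those of Con-DHT 1 and 2, and the other Con-DHT libraries lay within the Con-Veh range. The means were 11734 ± 1927 and 9085 ± 2244 (SD, n = 4), and the log2 fold change was -0.39 (SE 0.19, 95% interval -0.81 to 0.03, adjusted p = 0.25 by limma), and the exact two-sided permutation test over 70 arrangements gave p = 0.11. Arg1, on chromosome 10, had 27763, 18024, 17607.5 and 21505 in Con-Veh and 13489.8, 16016, 18092 and 19005 in Con-DHT. Con-Veh 1 stood well above the other 3 Con-Veh libraries, and Con-DHT 1 was again the lowest. The log2 fold change was -0.34 (SE 0.16, 95% interval -0.70 to 0.03, adjusted p = 0.25 by limma, exact permutation p = 0.17).

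As a share of all reads on mouse genes, the 5 urea cycle enzymes took 0.879 ± 0.117% in Con-Veh and 0.821 ± 0.130% in Con-DHT (SD, n = 4). The share ranged from 0.720% in Con-Veh 2 to 0.995% in Con-Veh 1 and from 0.657% in Con-DHT 1 to 0.975% in Con-DHT 3. All 10 genes together took 1.02 ± 0.125% and 0.995 ± 0.117%. Alb took 6.04 ± 1.94% of the reads in Con-Veh and 4.44 ± 0.449% in Con-DHT. Without Alb, the share of the 5 enzymes was 0.937 ± 0.137% and 0.858 ± 0.133%. Their summed normalized read counts were 135170 ± 19451 and 118622 ± 19928 (SD, n = 4). Cps1 averaged 54261 and 48471 and Ass1 44308 and 40858, so these totals mostly follow Cps1 and Ass1.

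The enzymes that free ammonia from amino acids were not called either. Gls2, on chromosome 10, had 4208, 4303, 4987 and 5291 in Con-Veh and 4380.5, 4933.5, 6081 and 3384 in Con-DHT. Con-DHT held both its highest and its lowest value, the means were 4697 ± 526 and 4695 ± 1125 (SD, n = 4), and the log2 fold change was -0.03 (SE 0.16, 95% interval -0.38 to 0.33, adjusted p = 0.94 by limma).

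Hal, on chromosome 10, had 6209, 4495.5, 4858 and 7562 in Con-Veh and 5057.5, 4173, 3793 and 4129.7 in Con-DHT. Con-Veh 4 and 1 were the highest, and of the Con-DHT libraries only number 1 reached the Con-Veh range. The means were 5781 ± 1398 and 4288 ± 540.3 (SD, n = 4). The fitted ratio of Con-DHT to Con-Veh was 0.753 (log2 fold change -0.41, SE 0.16, 95% interval -0.76 to -0.05, unadjusted p = 0.028, adjusted p = 0.16 by limma). DESeq2 gave an adjusted p of 0.081, and the exact permutation test gave p = 0.086.

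Sds, on chromosome 5, had 4374, 3794, 3561 and 4831 in Con-Veh and 3439.7, 3432.5, 3315 and 3432 in Con-DHT. Every Con-DHT library lay below every Con-Veh library, which was so for 1 of the 10 genes and, in either direction, for 15.1% of all tested genes. The Con-DHT values were close together, with a coefficient of variation of 1.76% against 13.9% in Con-Veh. The means were 4140.0 ± 574 and 3405 ± 60.0 (SD, n = 4), and the log2 fold change was -0.27 (SE 0.10, 95% interval -0.49 to -0.06, unadjusted p = 0.018, adjusted p = 0.12 by limma). The exact permutation test gave p = 0.0286, the smallest that 4 livers against 4 allow. In GENCODE M21, exons of Sds share 360 bases with Plbd2 on the opposite strand, and whether the counting used strand is not stated in the sources used here. Plbd2, named after its value was seen, fell from 1913 ± 96.5 to 1560.4 ± 72.9 (SD, n = 4, log2 fold change -0.29, adjusted p = 0.027 by limma). The part of shared reads in the Sds values was not tested.

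Cyp2f2, on chromosome 7, had the widest difference of the 10 genes. Its values were 4046.5, 6334, 7693 and 9784 in Con-Veh and 13051, 14956, 8633 and 12503 in Con-DHT. Of the Con-DHT libraries, 3 lay above all of Con-Veh, and Con-DHT 3 lay below Con-Veh 4. The means were 6964 ± 2408 and 12286 ± 2652 (SD, n = 4). The fitted ratio of Con-DHT to Con-Veh, from the mean log2 values, was 1.82 (95% interval 1.23 to 2.68, log2 fold change 0.86, SE 0.25, unadjusted p = 0.0065, adjusted p = 0.071 by limma, exact permutation p = 0.057). By edgeR the adjusted p was 0.080 and by DESeq2 0.011. By limma it was 0.042 without Con-Veh 4 and 0.047 without Con-DHT 3, the libraries whose values overlapped, and between 0.090 and 0.16 with each of the other 6 libraries left out. The noncoding gene Gm15883 shares 274 exon bases with Cyp2f2 on the opposite strand and had 171.5 ± 74.2 and 170.1 ± 49.0 (SD, n = 4, adjusted p = 0.95 by limma).

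Cdh1, on chromosome 8, had 378, 295, 276.5 and 336 in Con-Veh and 459, 292, 263 and 528 in Con-DHT. Con-DHT 1 and 4 were above every Con-Veh library and Con-DHT 2 and 3 at the lower end of Con-Veh or below it, so that the coefficient of variation was 33.3% in Con-DHT and 14.1% in Con-Veh. The log2 fold change was 0.21 (SE 0.21, 95% interval -0.26 to 0.68, adjusted p = 0.60 by limma). The bile duct markers Krt19, Krt7, Epcam, Sox9 and Spp1 summed to between 881 (Con-Veh 1) and 1049 (Con-Veh 4) in Con-Veh. In Con-DHT the sums lay between 855.5 (Con-DHT 1) and 1174 (Con-DHT 4). Spp1 alone averaged 792 in Con-Veh and 800.5 in Con-DHT, so the sums mostly follow Spp1. Of these 5 markers, 0 were called by limma, edgeR or DESeq2, with 0 at an unadjusted p under 0.05. The part of bile duct cells in the Cdh1 values was not tested.

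**Figure D2:**
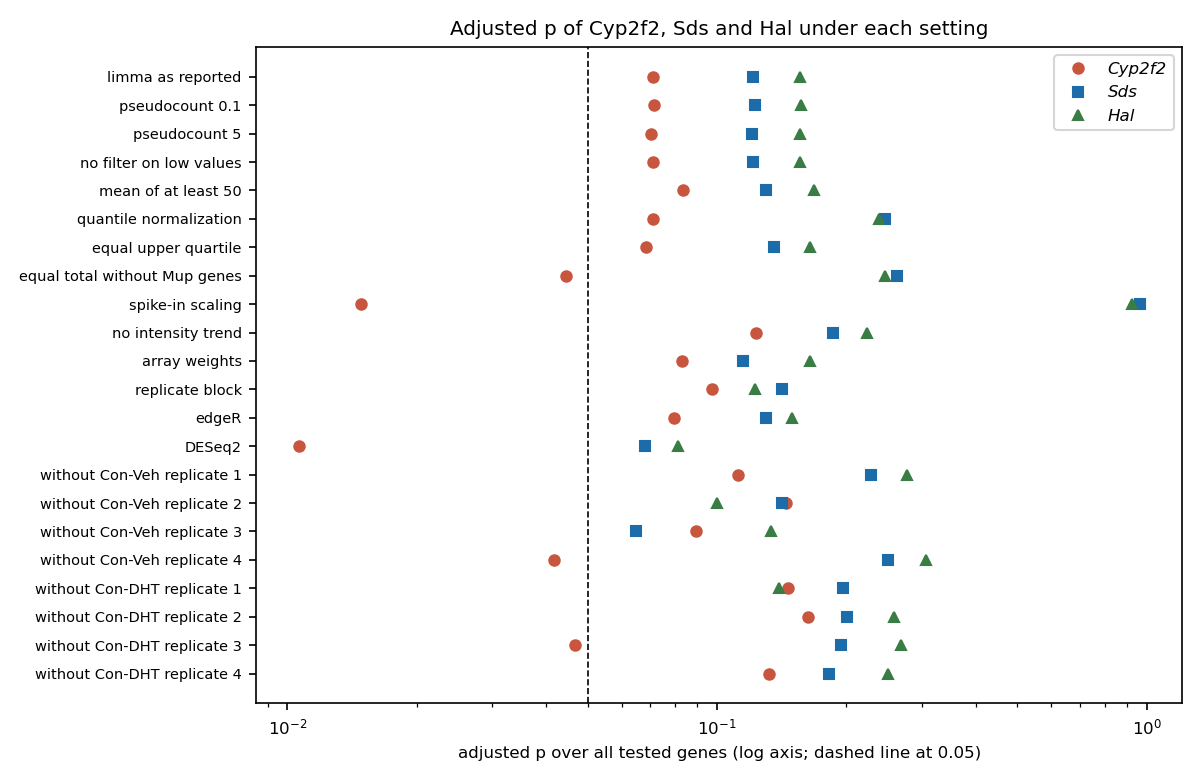
Adjusted p (horizontal axis, log scale, dashed line at 0.05) of Cyp2f2, Sds and Hal under each way of processing and with each library left out. Cyp2f2 lies left of the line with DESeq2, with an equal total without the Mup genes, with scaling by the spike-ins, without Con-Veh 4 and without Con-DHT 3, while Sds and Hal lie right of it throughout, between 0.065 and 0.97 and between 0.081 and 0.93.

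Levels between genes were compared per kilobase of exon, on the mean of all 8 livers. Ass1 had the highest normalized read count per kilobase, 17640.0, with a range over the livers of 13891 to 21729. It was followed by Cps1 (9247, range 6515 to 10647.5), Arg1 (8499.9, range 6055 to 12461) and Cyp2f2 (4753, range 1998 to 7386). Sds (2227), Asl (2155), Gls2 (1352), Hal (907) and Otc (849) came next, and Cdh1 was last at 77.3 with a range of 57.6 to 115.5. Neighbours in this order had overlapping ranges, except Ass1 above Cps1 and Otc above Cdh1. Exon lengths came from GENCODE M21 and not from the annotation used for counting. By normalized read count, without length, Cps1 lay at percentile 99.8 of all tested genes, Otc at 96.4 and Cdh1 at 62.2.

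**Figure D3:**
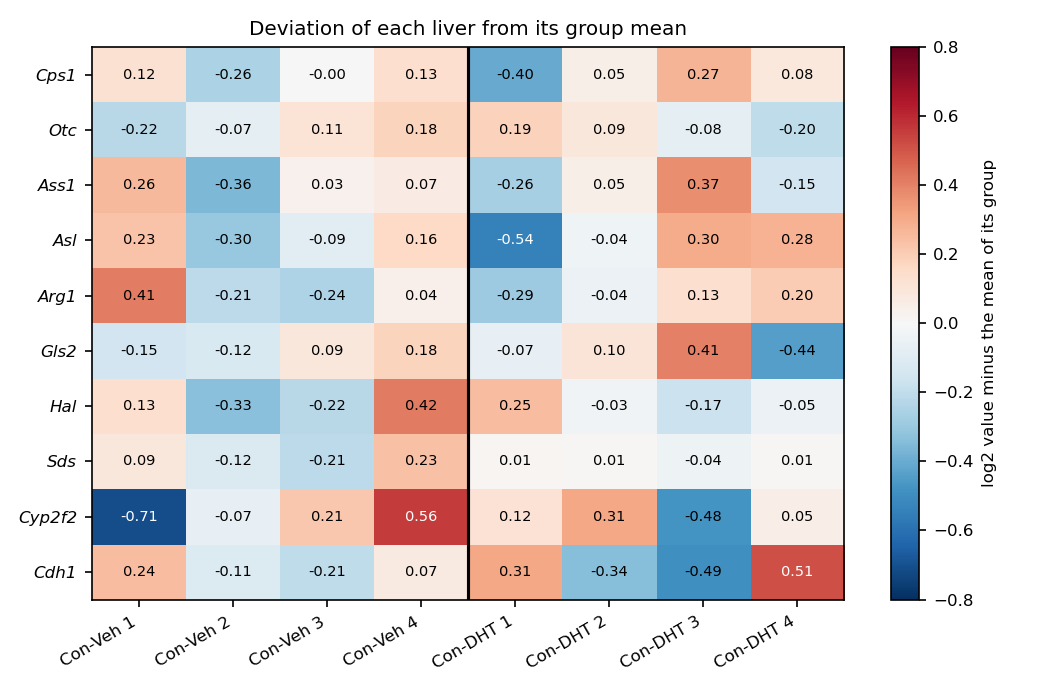
Difference of the log2(value + 1) of each of the 10 genes (rows) in each liver (columns) from the mean of its group, as colour and number in log2 units, with a line between Con-Veh and Con-DHT. Con-DHT 1 is below its group for Cps1, Ass1, Asl and Arg1, between -0.26 and -0.54, and above it for Otc at 0.19.

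The livers of a group differed among themselves in much the same way for most of the urea cycle enzymes, with Otc apart. Con-DHT 1 was the lowest of its group for Cps1, Ass1, Asl and Arg1, with deviations of -0.40, -0.26, -0.54 and -0.29 from the group mean on the log2 scale, and it was the highest for Otc, at 0.19. In Con-DHT the order of Otc ran from library 1 down to library 4, and those of Cps1 and Asl both ran 3, 4, 2, 1 from the highest down. In Con-Veh, library 1 was the highest for Ass1, Asl and Arg1 and the lowest for Otc, Gls2 and Cyp2f2. The mean of the 5 enzymes, each centred over all 8 livers, was 0.27, -0.13, 0.07 and 0.22 in Con-Veh 1 to 4 and -0.37, -0.08, 0.09 and -0.06 in Con-DHT 1 to 4.

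Within groups, Cyp2f2 was the most variable of the 10 genes, with a pooled SD of 0.45 on the log2 scale (percentile 84.5 of all tested genes). Cdh1 followed at 0.37 and Asl at 0.33, and the least variable were Otc at 0.18 and Sds at 0.14 (percentile 30.4), beside a median of 0.20 for all tested genes. As a measure of likeness, the root mean square difference over the 8 livers was taken between the centred log2 values of a gene and the mean of the urea cycle enzymes other than itself. It was 0.08 for Cps1, 0.15 for Ass1, 0.16 for Sds, 0.19 for Arg1 and 0.21 for Asl. The measure depends on the size of the differences between livers, so a gene that varies little, such as Sds, also gets a low value. The order therefore does not show that Sds moved more closely with the cycle than Arg1 or Asl. Otc, at 0.34, was less like the other enzymes of the cycle than Gls2 (0.26) and Hal (0.28) were like the cycle, and Cyp2f2 was the least like it at 0.71. Centring over all 8 livers leaves the difference between the groups in the measure. Cyp2f2 had the widest such difference and the largest spread within groups of the 10 genes, and both raise its value. Outside the 10 genes, those nearest to the mean of the 5 enzymes among 10705 genes that averaged at least 50 were Polm (0.05), Psmg3, Nup62, Arhgap19 and Hmgn5 (0.08 each), where the median gene was at 0.26. These values are descriptions over 8 libraries.

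Around the cycle, a list of 13 genes that feed it or move its intermediates had 12 in the table. Limma called 1 of the 12, against 7.21% of all tested genes. Glud1, the mitochondrial glutamate dehydrogenase that frees ammonia from glutamate, had 19245.5, 20416, 18178.5 and 17069 in Con-Veh and 13665, 14801, 13590.4 and 11911 in Con-DHT. All Con-DHT libraries lay below all Con-Veh libraries, and Glud1 fell by 0.47 on the log2 scale with an SE of 0.10 (adjusted p = 0.020 by limma and 3.2e-05 by DESeq2). The call was lost without Con-Veh 2 (log2 fold change -0.43, adjusted p = 0.060) and with scaling by the spike-ins (-0.28, SE 0.31, adjusted p = 0.92). Relative to the median of all genes, Glud1 stood at -0.46 with scaling by the spike-ins and at -0.47 in the fit as reported. These values are nearly equal by construction, because the scaling moves all genes of a library alike.

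Slc25a13, the mitochondrial aspartate-glutamate carrier that supplies aspartate to Ass1, had 3918, 3892, 4207 and 4341 in Con-Veh and 4858, 5419, 5274.5 and 4531 in Con-DHT. Its groups did not overlap either, which was so for 2 of the 12 genes, against 15.1% of all tested genes. DESeq2 called 2 of the 12, against 11.0% of all tested genes. The log2 fold change of Slc25a13 was 0.29 (SE 0.08, adjusted p = 0.054 by limma, 0.0092 by DESeq2). Of 13 alternatives it was called in 5, which besides DESeq2 were quantile normalization (adjusted p = 0.023 by limma), equal upper quartiles (0.0498), an equal total without the Mup genes (0.012) and array weights (0.041). It was not called in the other 8, among them edgeR (adjusted p = 0.064), the replicate block (0.12) and scaling by the spike-ins (0.67). With a library left out, limma called it without Con-DHT 4 (adjusted p = 0.040) and not in the other 7 cases (0.078 to 0.14). The ornithine carrier Slc25a15 had a log2 fold change of -0.20 (adjusted p = 0.53 by limma), and Nags, which makes the activator of Cps1, of -0.08 (adjusted p = 0.68). The other genes of this list were Car5a (-0.07), Slc25a22 (0.06), Got1 (0.06), Got2 (0.10), Sirt5 (0.26), Fh1 (0.18), Mdh1 (0.04) and Aqp9 (0.04), with adjusted p values between 0.28 and 0.92, and the median log2 fold change of the 12 was 0.05.

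Of the 8 genes of glutamine and ammonia handling reported here, 0 were called by limma and edgeR and 1, Slc7a2, by DESeq2, with 1 at an unadjusted p under 0.05 and a median log2 fold change of 0.04. Of all tested genes, limma called 7.21% and DESeq2 11.0%, and 23.2% had an unadjusted p under 0.05 by limma. Slc7a2, a carrier of arginine and ornithine, had a log2 fold change of 0.37 (adjusted p = 0.11 by limma, 0.033 by DESeq2). By limma it was called with an equal total without the Mup genes (adjusted p = 0.044) and without Con-DHT 4 (0.033), and in none of the other limma alternatives. Glul, the glutamine synthetase of the hepatocytes next to the central vein, had 21645 ± 2010 in Con-Veh and 19396 ± 1555 in Con-DHT (SD, n = 4, log2 fold change -0.16, adjusted p = 0.41 by limma). The remaining genes were Slc1a2 (0.14), Slc38a2 (-0.06), Slc38a3 (0.21), Slc38a4 (0.10), Oat (-0.02) and Rhbg (-0.09), with adjusted p values between 0.40 and 0.97.

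**Figure D4:**
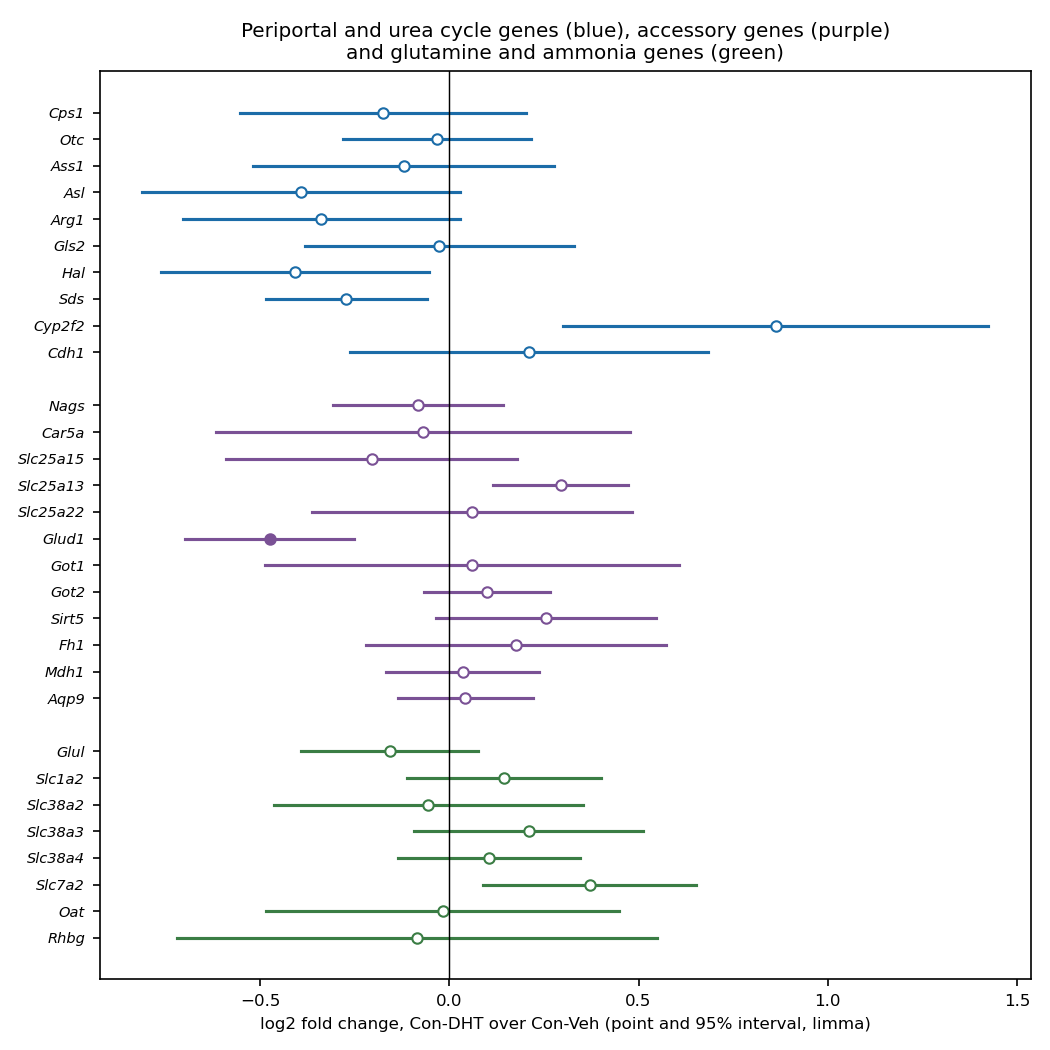
Log2 fold change of Con-DHT over Con-Veh (horizontal axis, point with 95% interval from limma) for the 10 periportal and urea cycle genes, 12 accessory genes of the cycle and 8 genes of glutamine and ammonia handling. The filled point, Glud1 at -0.47, has an adjusted p of at most 0.05.

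The pathways that Hal and Sds belong to gave no call with limma or edgeR. Beside the counts that follow, limma called 7.21% of all tested genes, edgeR 7.15% and DESeq2 11.0%. An unadjusted p under 0.05 by limma was found for 23.2% of all tested genes, and 15.1% had groups that did not overlap. Of 11 genes of histidine, serine and glycine breakdown, 0 were called by limma and edgeR and 2 by DESeq2, and 2 had an unadjusted p under 0.05. These 2 were Amdhd1, a later step of histidine breakdown (log2 fold change -0.46, adjusted p = 0.080 by limma, 0.029 by DESeq2), and Gldc, the glycine decarboxylase (-0.64, adjusted p = 0.064 and 0.0076), both named after their values were seen. The list's median was -0.18. Of 17 genes that break down other amino acids, 0 were called by limma and edgeR and 2 by DESeq2 (Prodh2 at -0.30 and Bckdhb at -0.24, with adjusted p values of 0.064 and 0.056 by limma, also named after their values were seen), 3 had an unadjusted p under 0.05, and the median was -0.06. Of the 9 regulators of amino acid breakdown reported here, 0 were called by limma and edgeR and 1 by DESeq2, with 1 at an unadjusted p under 0.05. This was Creb3l3, a liver transcription factor of the fasting response, whose log2 fold change was 0.24 (adjusted p = 0.089 by limma, 0.023 by DESeq2) without overlap between the groups, and which was named after its value was seen.

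Other genes with higher expression near the portal vessels were compared in the same fit. Of 10 such markers limma called 1, against 7.21% of all tested genes, namely Ctsc, a lysosomal protease that is also made by macrophages. An unadjusted p under 0.05 by limma was found for 3, against 23.2% of all tested genes. Besides Ctsc these were Aldh1b1 (-0.71, adjusted p = 0.19 by limma) and Fbp1 (-0.26, adjusted p = 0.15), both named after their values were seen. The log2 fold change was negative for 7 of the 10 markers. Ctsc had 1529, 2232, 1195 and 1242 in Con-Veh and 832, 717, 807 and 671 in Con-DHT, and it fell by 0.99 on the log2 scale with an SE of 0.18 (adjusted p = 0.0090 by limma). The call was lost with scaling by the spike-ins (log2 fold change -0.79, SE 0.30, adjusted p = 0.13). Relative to the median of all genes Ctsc stood at -0.98 in both fits, which are nearly equal there by construction. The median over the 10 markers was -0.21, and Alb among them varied from 539802.5 to 1275381 in Con-Veh. Of 16 pericentral markers, 0 were called by limma or edgeR and 1 by DESeq2 (Lgr5, a receptor of Wnt-active cells, at -0.61 with adjusted p values of 0.078 by limma and 0.026 by DESeq2, named after its value was seen), with 1 at an unadjusted p under 0.05 and a median of -0.02. DESeq2 called 11.0% of all tested genes. The summed level of the pericentral list was between 217969 and 254221 in Con-Veh and between 213986 and 280549 in Con-DHT. Cyp2e1 alone averaged 156070 in Con-Veh and 165628 in Con-DHT and made up most of that sum. The summed level of the 10 genes described here was between 129371 and 174947 in Con-Veh and between 119717 and 164157 in Con-DHT.

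The markers of other liver cell types were not equal between the groups. Of 7 Kupffer cell and macrophage markers, limma called 5, all lower in Con-DHT (Clec4f, Cd5l, Vsig4, Cd68 and Lyz2), against 2.61% of all tested genes called lower. All 7 had a negative log2 fold change and an unadjusted p under 0.05 by limma, which 23.2% of all tested genes had in either direction. The summed level of all 7 was 6067.5 to 7345.5 in Con-Veh and 4029 to 5316.5 in Con-DHT, without overlap. Cd5l averaged 2767 in Con-Veh and 1529 in Con-DHT, and Clec4f 2315 and 1751, so the sums mostly follow Cd5l and Clec4f. Taken singly, 4 of the 7 markers had groups that did not overlap, against 15.1% of all tested genes. Of 6 endothelial markers, limma called 2, both lower in Con-DHT (Stab2 and Lyve1), against the same 2.61% of all tested genes. The log2 fold change was negative for 5 of the 6, and 3 had an unadjusted p under 0.05 by limma. The sums were 3088 to 3451 in Con-Veh and 2299.6 to 2621 in Con-DHT. With single libraries left out, the calls of Clec4f and Lyve1 were kept in 2 of 8 cases each and that of Stab2 in 6, and edgeR did not call Lyve1 (adjusted p = 0.052). The call of Clec4f was also lost with quantile normalization (adjusted p = 0.056), an equal total without the Mup genes (0.088), no intensity trend (0.085) and the replicate block (0.079), and that of Lyve1 with no intensity trend (0.076). With scaling by the spike-ins the 5 macrophage markers and Stab2 were no longer called (adjusted p between 0.31 and 0.93), with log2 fold changes between -0.66 (Cd5l) and -0.21 (Clec4f). Of 6 hepatocyte markers, limma and edgeR called 2, Trf and Serpinc1, both lower in Con-DHT (log2 fold changes -0.75 and -0.38, adjusted p = 0.013 and 0.041 by limma). Limma called 2.61% of all tested genes lower. DESeq2 called 3 of these 6 markers, against 11.0% of all tested genes, with Apoh besides (-0.26, adjusted p = 0.15 by limma, 0.015 by DESeq2, named after its value was seen). An unadjusted p under 0.05 by limma was found for 3, and the log2 fold change was negative for 5 of the 6, with a median of -0.32. The call of Trf was lost with scaling by the spike-ins (log2 fold change -0.55, adjusted p = 0.67) and with the replicate block (0.070), and was kept with each library left out. That of Serpinc1 was lost with scaling by the spike-ins (log2 fold change -0.19, adjusted p = 0.93), quantile normalization (0.12), an equal total without the Mup genes (0.086) and the replicate block (0.13), and was kept in 1 of 8 cases with a library left out. Of 8 stellate and fibroblast markers 0 were called by limma, edgeR or DESeq2, with 1 at an unadjusted p under 0.05. Of 6 blood and lymphoid markers 3 were in the table, and 0 were called by any of the 3 tools, with 2 at an unadjusted p under 0.05. No listed marker that was in the table was at 0 in any library. Their part in the values of the periportal and urea cycle genes was not tested.

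**Figure D5:**
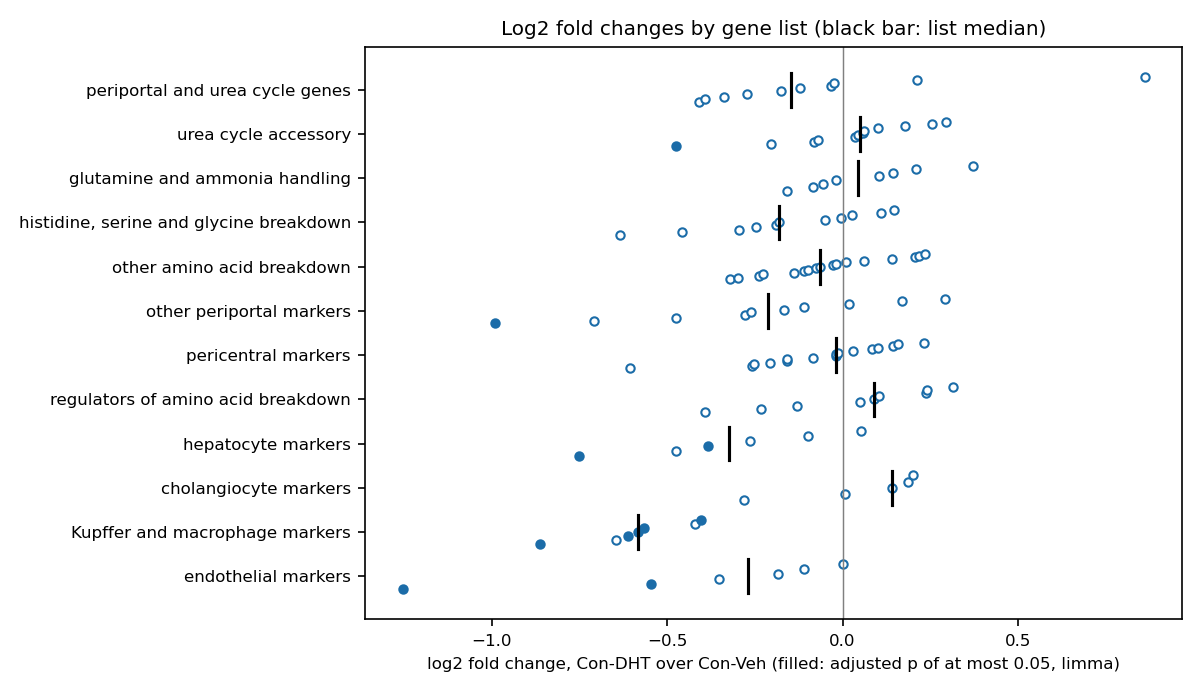
Log2 fold change of Con-DHT over Con-Veh (horizontal axis) of each gene of the 10 periportal and urea cycle genes and of the other gene lists, with a black bar at the median of a list and filled points for genes that limma called. The median of the 10 genes is -0.15 and that of the 7 macrophage markers -0.58, with 0 and 5 filled points.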

How the data were processed

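Liver RNA of 4 Con-Veh and 4 Con-DHT mice was sequenced, with 1 library per mouse, and groups and replicate numbers came from the labels. Per the methods and the submitters' processing notes, the authors trimmed the reads with Trimmomatic, aligned them with STAR (the notes name GRCm39), counted uniquely mapped exon reads with featureCounts (Subread) and normalized with DESeq2. The strand setting of the counting is not given in the sources used here. The deposited values are a normalized signal, reads per gene divided by a size factor, for 14371 features, of which 54 are spike-ins. No feature had fewer than 81 reads over the 8 libraries. Divided by the smallest step of its column, 100% of the values were whole within 0.01 reads. The libraries held 13123962 to 17815944 reads on mouse genes, and spreads are SDs over mice, which include counting error. Libraries of a group differed by a chi-square per degree of freedom of 19.2 to 61.6 over 12 pairs, more than counting noise alone gives, and each library was counted as 1 replicate as labelled.

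The 14312 mouse genes averaging 10 or more were tested as log2(value + 1) in R 4.3.3 with limma 3.58.1 (lmFit, trended eBayes, no block), and p-values were adjusted over all of them by Benjamini-Hochberg, with calls at 0.05. Changes of low genes are understated by the pseudocount of 1. Single genes were also tested by exact two-sided permutation over the 70 arrangements. The alternatives were pseudocounts of 0.1 and 5, a minimum average of 50 or none at all, normalization by quantiles, equal upper quartiles, an equal total without the Mup genes, spike-in scaling, no trend, array weights, a replicate block, edgeR 4.0.16 (quasi-likelihood, TMM) and DESeq2 1.42.0 (Wald) on the recovered whole reads, and each library left out. The genes and lists were chosen with earlier results of these data known, and 2 listed genes are not reported here and do not enter the counts of their lists. Named were all 10 genes, every called gene of the other lists, the accessory and glutamine lists, and the 5 genes nearest to the urea cycle mean. Symbols, exon lengths and overlaps came from GENCODE M21 (symbols for 14287 genes), shared sequence from blastn, and promoter windows from RefSeq (GRCm38.p6), since no GRCm39 annotation was used here. Permutations were run in Python 3.11.15 (numpy 2.4.6, pandas 2.3.3) and figures drawn with matplotlib 3.10.9.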

Additional observations from a re-analysis of the deposited data

Results flagged for a closer look

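Over 88 groups of 4 values, 4 had a library whose gap to its nearest neighbour exceeded Dixon's 95% critical value for its share of the group's range, and about 1 in 20 groups does so by chance. In Con-DHT, Sds had its lowest value, 3315, in library 3, while the other 3 lay between 3432 and 3439.7. In Con-Veh, library 1 was low for Sirt5, the mitochondrial deacylase that acts on Cps1, at 115 against 149 to 155, and high for Fh1, the mitochondrial and cytosolic fumarase, at 4369.7 against 2678 to 2907. In Con-DHT, library 1 was high for the Kupffer cell marker Vsig4, at 389.5 against 287 to 295. The cause of these values was not tested.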

How the results depend on the processing

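Of the 10 genes, 0 were called with limma as reported and in 10 of 13 other alternatives. In the others 1 was called, Cyp2f2. These were an equal total without the Mup genes (log2 fold change 0.96, adjusted p = 0.045), DESeq2 (0.82, 0.011) and spike-in scaling (1.06, 0.015). With spike-in scaling the SE of Cyp2f2 was 0.31, against 0.25 as reported, although the adjusted p was lower. The spread of the spike-ins enters every gene there, so that call is not comparable with the others. Relative to the median of all genes Cyp2f2 stood at 0.87 there, which repeats the fit as reported by construction. With a library left out, between 0 and 1 were called, Cyp2f2 without Con-Veh 4 (1.05) or Con-DHT 3 (1.02). The left-out log2 fold change of Cyp2f2 ran from 0.62 to 1.05. Asl, Arg1, Hal, Sds, Cyp2f2 and Cdh1 kept their direction throughout. The cause of the changes was not tested.

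Over all genes, 1032 were called, 648 with a mean of at least 50 (10725 genes tested), 636 with spike-in scaling, 1569 with DESeq2, and 638 to 897 with a library left out, the lowest without Con-Veh 4 (638), Con-Veh 2 (649), Con-DHT 1 (651) or Con-DHT 2 (653). Of the calls, 63.8% were higher in Con-DHT, 83.9% with an equal total without the Mup genes (median log2 fold change of all genes 0.09) and 88.2% with spike-in scaling (0.19). The sources used here do not describe a pairing of mice by replicate number. For each library, the deviations of its log2 values from its group mean were taken over all tested genes. These deviations correlated at -0.19 to -0.01 over the 4 pairs of same-numbered libraries, and 0 of 8 libraries correlated best with their own number. With 4 pairs this shows no shared deviation but cannot exclude a pairing. With the replicate block 700 genes and 0 of the 10 were called.

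Genes with small differences changed sign, none with a call. With quantile normalization these were Otc (0.019), Ass1 (0.0654), Gls2 (0.0063) and Oat (0.029). With an equal total without the Mup genes they were Otc (0.0653), Gls2 (0.0725), Nags (0.016), Car5a (0.0292), Slc38a2 (0.0432), Oat (0.0811) and Rhbg (0.0103). With spike-in scaling they were Cps1 (0.0243), Otc (0.17), Ass1 (0.0783), Gls2 (0.17), Nags (0.12), Car5a (0.13), Glul (0.0416), Slc38a2 (0.14), Oat (0.18) and Rhbg (0.11). With array weights they were Slc38a2 (0.0029) and Oat (0.0274), with edgeR Gls2 (0.0025) and Oat (0.0305), and with DESeq2 Oat (0.0265). With a library left out, Otc ranged from -0.11 to 0.034, Gls2 from -0.16 to 0.12, Car5a from -0.25 to 0.18, Slc25a22 from -0.0623 to 0.24, Got1 from -0.0896 to 0.27, Mdh1 from -0.025 to 0.0877, Slc38a2 from -0.20 to 0.064, Oat from -0.17 to 0.17 and Rhbg from -0.36 to 0.10. Rhbg was not tested at a mean of at least 50. With 4 livers in each group, the 95% intervals of the urea cycle enzymes had lower ends between -0.81 (Asl) and -0.28 (Otc) and upper ends between 0.03 (Asl and Arg1) and 0.28 (Ass1).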
